A study of Mus musculus with 9 samples.

Results

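The cadherin and protocadherin genes of motor neurons were followed across 3 motor pools of the mouse. The set comprised the 56 genes whose symbol begins with Cdh and a digit, or with Pcdh, among 18193 genes named by probe sets that carry 1 gene each. The rule rested on names and used no measured value, but it was set with earlier results of these data known. Each gene was represented by 1 of its probe sets, the one with the highest mean over the 9 arrays, and the 56 genes had 101 probe sets in all.

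The arrays were made from wild-type male C57BL/6J mice at postnatal day 7. The pools were motor neurons at the fifth lumbar level of the spinal cord (L5), motor neurons of the dorsolateral nucleus one segment further down, at the L6 level (DL), and motor neurons of the midbrain's oculomotor nucleus (OMN), with 3 arrays each. No group carried a transgene or received a treatment. About 200 neurons of each pool were cut from each animal by laser from 12 µm sections, and a cresyl violet stain was the only recognition the labels give. At least 1.5 ng of RNA was amplified and hybridised to Affymetrix Mouse Genome 430 2.0 arrays, and the deposited values are linear intensities. The labels do not link equal replicate numbers to the same animal, so p-values measure the spread between these arrays.

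Cadherins are calcium-dependent adhesion proteins of the cell surface. Classical cadherins bind the same or a related cadherin on a neighbouring cell and hold on to actin through catenins. Type I members such as N-cadherin are broadly expressed in neural tissue, while the type II members differ from one neuron group to the next, and in the chick and mouse spinal cord their combinations help motor neurons of one pool to settle together. Protocadherins have the same extracellular repeats and other cytoplasmic tails. The delta protocadherins are separate genes that act in axon growth and synapse formation, whereas the clustered protocadherins lie in tandem arrays and are drawn on in varied combinations that give a neuron a surface identity.

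The members differed widely in how clearly they were detected. As a noise level served 18.3, the maximum over all arrays among 27 control probe sets for bacterial transcripts that had not been added. Of the 56 members, 33 (58.9%) exceeded it on all 9 arrays, against 56.7% of all genes, 19 exceeded it on some arrays, and 4 (Cdh1, Cdh17, Pcdhb1 and Pcdhb6) on none. All 5 delta-2 protocadherins, 8 of 11 type II cadherins, 3 of 4 delta-1 protocadherins and 11 of 23 clustered protocadherins were above it on every array, but only 2 of 5 type I and 1 of 5 atypical cadherins were. Between 37 and 45 members exceeded the noise level on an array.

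The pools were checked against markers of motor neurons and of other cells. Slc18a3, the vesicular acetylcholine transporter, and Slc5a7, the choline transporter, were bright in every pool, while the dim Chat probe set exceeded the noise level on 0 L5 arrays, 1 DL array and all 3 OMN arrays, with a maximum of 24.5. The summed intensity of 7 motor neuron markers was 25757 to 25819 in L5, 18636 to 22930 in DL and 18588 to 19336 in OMN. Single markers differed from that sum, with Isl1 at means of 598, 2717 and 2129 in L5, DL and OMN (called lower in L5 than in both others) and Isl2 at 85.6, 96.2 and 12.6 (called higher in DL than in OMN). Between L5 and OMN, 1 of the 7 motor neuron markers was called higher and 1 lower. Of the markers of other cells, the oligodendrocyte and astrocyte sums were bright in every pool, and the sums of the other cell types were lower. The sum of 9 oligodendrocyte markers was 15741 to 16766 in L5, 22575 to 24789 in DL and 12478 to 14239 in OMN, and 3 of the 9 (Cldn11, Ermn and Ugt8a) were called lower in L5 than in DL and higher in DL than in OMN. The sum of 10 astrocyte markers was 22823 to 24158 in L5, 18884 to 21246 in DL and 18186 to 18812 in OMN, but Gfap among them was 233 to 392 in L5, 1074 to 2333 in DL and 12.2 to 22.7 in OMN and was called in all 3 comparisons. The sum of 7 inhibitory interneuron markers was 1661 to 2340 in L5, 5094 to 6014 in DL and 1989 to 2782 in OMN. Of these 7, 1 was called higher and 2 lower between L5 and OMN. Between L5 and DL 2 were called lower and 0 higher, and between DL and OMN 2 higher and 0 lower. The sum of 5 excitatory interneuron markers, mostly Slc17a6, was 441 to 525 in L5, 158 to 311 in DL and 1021 to 1288 in OMN. The sum of 3 Schwann cell and sensory ganglion markers, mostly Pmp22 and in DL also Pirt, was 1892 to 2256 in L5, 1356 to 2455 in DL and 180.4 to 213 in OMN. The ranges of the oligodendrocyte precursor and microglia sums overlapped between the pools, and the pericyte and fibroblast sum was 2305 to 2897 in L5, 2702 to 3889 in DL and 2131 to 2633 in OMN. Replicates of DL were more spread than the others, with a median SD of 0.29 on the log2 scale, against 0.20 in L5 and 0.17 in OMN over 7120 bright genes. The 3' to 5' ratio of the Gapdh control was 3.27 and 3.75 on DL arrays 1 and 3 and lay between 2.33 and 2.67 on the other 7 arrays. In such pooled tissue, fewer cells of a type and less RNA per cell cannot be told apart.

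Differences between pools were tested with limma on log2(intensity + 16), and p-values were adjusted over all 18193 genes by the Benjamini-Hochberg method. A gene is called here when its adjusted p is under 0.05, and an error after a log2 difference is its standard error in the fit. Between L5 and OMN, 2 of the 56 members were called, 1 higher and 1 lower in L5 (3.57%), against 2.15% of all genes (0.951% higher and 1.2% lower). Between L5 and DL, 3 members were called, 2 higher and 1 lower in L5 (5.36%), against 2.52% of all genes (1.25% higher and 1.27% lower). Between DL and OMN, 5 members were called, 3 higher and 2 lower in DL (8.93%), against 3% of all genes (1.36% higher and 1.64% lower). Each pool enters 2 of the 3 comparisons, so these counts share arrays. In the same order of comparisons, 2904, 3440 and 2920 of all genes had an unadjusted limma p under 0.05. In total 7 members were called somewhere. They were the type II cadherins Cdh6, Cdh10 and Cdh22 and the protocadherins Pcdh9, Pcdh17, Pcdh18 and Pcdh20. Of the 10 calls, 0 held with a pseudocount of 1, 2 in fits of only the 2 pools compared, 3 once the Gapdh ratio entered the fit (Cdh6 for L5 with OMN and both calls of Cdh10) and 2 without DL arrays 1 and 3 (Cdh6 for L5 with OMN and Cdh10 for DL with OMN).

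**Figure D1:**
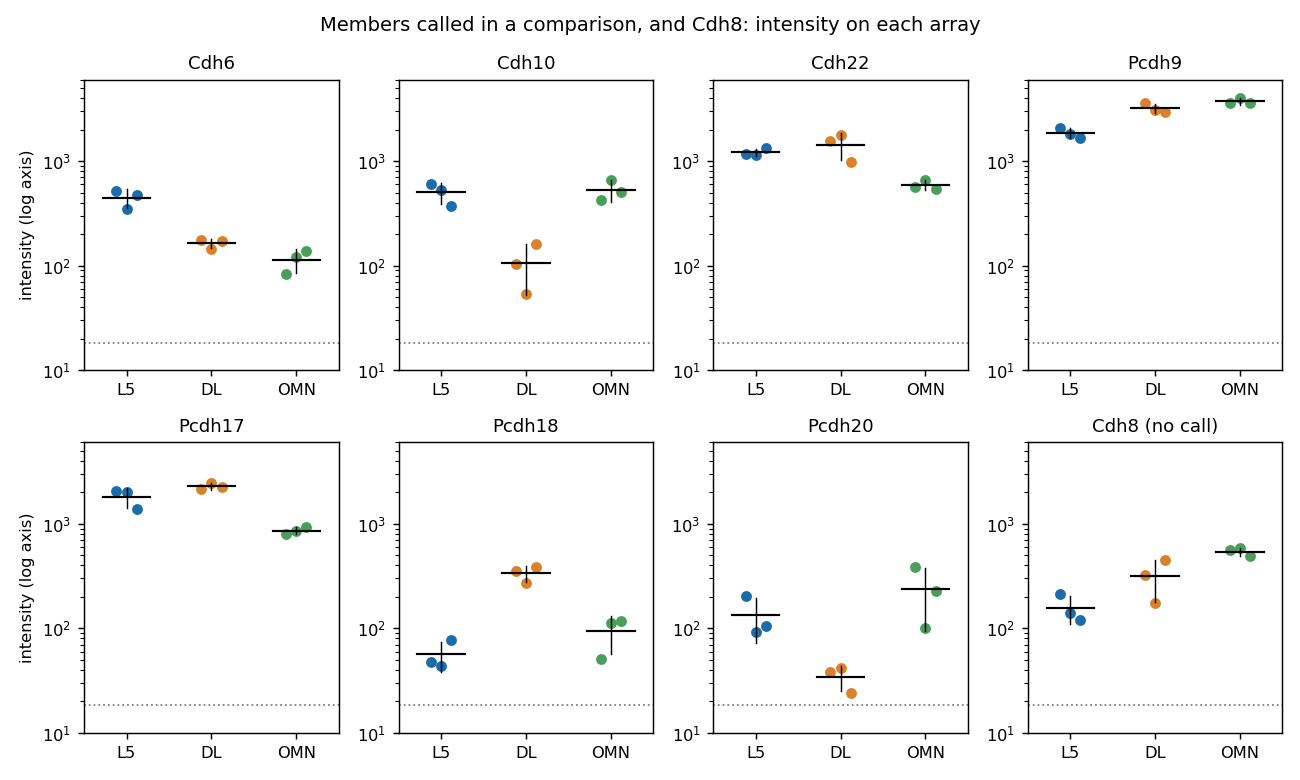
Intensity on a log axis for the 7 members called in a comparison and for Cdh8, which was not called, in L5, DL and OMN. Points are arrays, horizontal lines are means with SD (n = 3), and the dotted line is the noise level of 18.3. Cdh6 is brightest in L5, Cdh10 and Pcdh20 are dim in DL, and Pcdh18 is bright in DL.

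The proximal promoters of 4 of these genes are given, as a pair of type II cadherins and a pair of delta-2 protocadherins to be set side by side. The type II pair Cdh6 and Cdh10 lie on the same chromosome and Pcdh17 and Pcdh18 are delta-2 protocadherins that were both higher in DL than in OMN. Each sequence runs 5′ to 3′ on the strand of the gene, 250 bases before to 50 after the annotated start, from RefSeq on build GRCm38.p6. Capitals mark CCAAT (or ATTGG, its other strand) and TAAT (or ATTA, its other strand), the core letters of the CCAAT box and of many homeodomain sites. The matches did not overlap one another. The regions are chr15:13173626-13173925 on the minus strand for Cdh6, chr15:18820079-18820378 on the plus strand for Cdh10, chr14:84443313-84443612 on the plus strand for Pcdh17 and chr3:49757267-49757566 on the minus strand for Pcdh18.
Cdh6: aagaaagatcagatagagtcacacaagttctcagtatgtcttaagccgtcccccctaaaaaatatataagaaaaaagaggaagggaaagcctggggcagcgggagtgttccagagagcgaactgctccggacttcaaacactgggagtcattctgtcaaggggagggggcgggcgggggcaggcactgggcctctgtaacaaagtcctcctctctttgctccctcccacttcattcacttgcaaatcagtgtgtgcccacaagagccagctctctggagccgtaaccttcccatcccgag
Cdh10: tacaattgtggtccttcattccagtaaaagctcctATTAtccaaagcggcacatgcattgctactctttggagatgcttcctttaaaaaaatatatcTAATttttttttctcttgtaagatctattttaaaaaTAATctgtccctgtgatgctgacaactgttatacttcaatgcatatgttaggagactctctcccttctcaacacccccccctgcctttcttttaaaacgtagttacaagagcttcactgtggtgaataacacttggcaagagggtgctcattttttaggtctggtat
Pcdh17: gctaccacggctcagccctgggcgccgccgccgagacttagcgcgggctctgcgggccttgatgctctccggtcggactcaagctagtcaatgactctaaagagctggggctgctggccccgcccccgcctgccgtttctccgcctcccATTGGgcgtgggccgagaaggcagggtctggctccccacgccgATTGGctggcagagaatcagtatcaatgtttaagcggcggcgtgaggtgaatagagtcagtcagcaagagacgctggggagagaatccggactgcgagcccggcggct
Pcdh18: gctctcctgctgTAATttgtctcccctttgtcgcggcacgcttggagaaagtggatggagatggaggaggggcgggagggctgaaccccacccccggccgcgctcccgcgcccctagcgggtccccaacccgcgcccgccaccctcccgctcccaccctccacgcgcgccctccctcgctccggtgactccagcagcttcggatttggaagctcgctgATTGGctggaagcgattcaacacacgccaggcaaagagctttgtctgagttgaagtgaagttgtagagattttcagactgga

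The Pcdh17 window held CCAAT letters at 2 places and the Pcdh18 window at 1, while those of Cdh6 and Cdh10 held none. TAAT letters occurred at 3 places in the Cdh10 window and at 1 in that of Pcdh18, and at 0 in those of Cdh6 and Pcdh17. Among all 32851 promoters of the same length, 37.4% held CCAAT and 58.0% held TAAT. Of the 56 members, 20 were found in the promoter table, with 23 promoters, of which 17 held CCAAT and 12 held TAAT. The G and C share was 53.0% for Cdh6, 37.7% for Cdh10, 65.0% for Pcdh17 and 63.0% for Pcdh18. A match is a stretch of letters and not a known site.

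Among the type II cadherins, Cdh6 was the member that marked L5. Cdh6 is K-cadherin, a cadherin of kidney and of early neural tissue. Its intensity was 522, 345 and 471 on the L5 arrays, 176, 144 and 172 on the DL arrays and 82.6, 121 and 139.5 on the OMN arrays. All L5 arrays stood above all DL arrays, which in turn stood above the OMN arrays. Cdh6 was 3.90-fold higher in L5 than in OMN (log2 difference 1.83 ± 0.24, limma adjusted p = 0.0146) and 2.72-fold higher in L5 than in DL (1.34 ± 0.24, limma adjusted p = 0.0395). The difference between DL and OMN was 0.49 ± 0.24 and did not pass the test (limma adjusted p = 0.399). A second Cdh6 probe set gave log2 differences of 1.87 for L5 minus OMN and 1.27 for L5 minus DL. The call against OMN was lost when any L5 or OMN array was left out (adjusted p up to 0.0853 over all alternatives), and that against DL in 8 of the 9 such fits, all but that without OMN array 1 (up to 0.154 in these fits and 0.194 over all alternatives).

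Cdh10 set DL apart from both other pools. Cdh10 is a type II cadherin that belongs, with Cdh6 and Cdh9, to a closely related branch of the family. Its intensity was 607, 533 and 375 on the L5 arrays, 104, 53.7 and 162 on the DL arrays and 425, 665 and 504 on the OMN arrays. All 3 DL arrays lay below every array of the other pools, and L5 and OMN overlapped. Cdh10 was 4.74-fold higher in L5 than in DL (log2 difference 2.16 ± 0.39, limma adjusted p = 0.0382), and DL was below OMN by 4.99-fold (-2.24 ± 0.39, limma adjusted p = 0.0298). The other 3 Cdh10 probe sets, all dimmer, did not show it, with L5 minus DL at 0.03, 0.68 and -0.01 on the log2 scale and DL minus OMN at -0.54, -0.67 and -0.44. With the log2 values of its 4 probe sets averaged, the L5 minus DL call was lost (log2 difference 0.72, limma adjusted p = 0.0612). In that setting the DL minus OMN call held, with a smaller log2 difference (-0.97, limma adjusted p = 0.0196). Of the 9 fits without 1 array, the call held in 1 for L5 with DL and in 2 for DL with OMN (adjusted p up to 0.168 and 0.133). The excitatory interneuron sum, mostly Slc17a6, was also lowest in DL, and its part in these values was not tested. By the sign of the log2 difference, 3 of its 5 markers were lower and 2 higher in DL than in L5. Against OMN, 4 were lower and 1 was higher in DL.

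Cdh22 was lowest in OMN. Cdh22, also called PB-cadherin, was first described in pituitary and brain. Its intensity was 1168, 1140.3 and 1332 on the L5 arrays, 1553, 1789 and 982 on the DL arrays and 559.5, 666 and 546 on the OMN arrays, so that every L5 and DL array lay above every OMN array while L5 and DL overlapped. Cdh22 was 2.44-fold higher in DL than in OMN (log2 difference 1.23 ± 0.24, limma adjusted p = 0.0464). For L5 it was 2.05-fold the OMN mean, which did not pass the test (1.02 ± 0.24, limma adjusted p = 0.0984). The array holds 1 probe set for it, and its call was lost in 8 of the 9 fits without 1 array, all but that without DL array 3 (adjusted p up to 0.186), and under quantile normalization. The Schwann cell and sensory ganglion sum was also higher in both spinal pools than in OMN, and its part in these values was not tested. By the sign of the log2 difference, 1 of its 3 markers was higher and 2 were lower in L5 than in OMN. In DL all 3 were higher than in OMN.

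Cdh8 was highest in OMN and fell just short of the threshold. Cdh8 is a type II cadherin of brain circuits, the cortex and cerebellum among them. Its intensity was 212, 141 and 121 on the L5 arrays, 321, 175 and 451 on the DL arrays and 556, 585 and 489 on the OMN arrays. All L5 and all DL arrays lay below the OMN arrays. The L5 minus OMN difference was -1.71 ± 0.33 on the log2 scale (limma adjusted p = 0.0513), with an OMN mean 3.43 times that of L5. A second probe set gave -1.70, with a limma adjusted p of 0.0409 over all probe sets. Cdh8 was called between L5 and OMN in some alternatives, such as those with quantile normalization, averaged probe sets or the Gapdh ratio. It was not called with a pseudocount of 1 or with each array centred on its median. Leaving out DL array 1 or any L5 or OMN array also gave no call for Cdh8. The excitatory interneuron sum was also highest in OMN, and its part was not tested.

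The other type II members gave no call. Cdh9, a cadherin of hippocampal synapses, had intensities of 156, 95.3 and 132 on the L5 arrays, 114, 13.2 and 65.6 on the DL arrays and 43.2, 47.7 and 27.3 on the OMN arrays, and its L5 minus OMN difference was 1.37 ± 0.42 (limma adjusted p = 0.174). DL array 2 alone was below the noise level. Cdh20, the mouse counterpart of the chick motor neuron cadherin MN-cadherin, averaged 267 ± 56.5 in L5, 501 ± 78.4 in DL and 312 ± 1.81 in OMN (SD, n = 3 each), with L5 minus DL at -0.88 ± 0.21 (limma adjusted p = 0.0762). Every DL array exceeded every array of the other pools for Cdh20. Cdh11, known from mesenchyme and bone, averaged 625 ± 106 in L5, 935 ± 179 in DL and 1088 ± 141 in OMN (SD, n = 3 each), and every L5 array was lowest. Cdh7 averaged 254 ± 97.3 in L5, 258 ± 105 in DL and 200.5 ± 52.7 in OMN, and its pools overlapped. A second Cdh7 probe set gave DL minus OMN at -0.42, against 0.29 for the chosen one. Cdh18 and Cdh19 exceeded the noise level on 1 array each.

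Cdh5 is VE-cadherin, the cadherin of blood vessel walls, and serves here as a measure of other cells. Its intensity was 61.9, 27.8 and 98 on the L5 arrays, 85.5, 337 and 170.3 on the DL arrays and 84.5, 133 and 99.4 on the OMN arrays, and L5 minus DL was -1.37 ± 0.48 on the log2 scale (limma adjusted p = 0.185). The sum of 8 endothelial markers was 675 to 1072 in L5, 1190 to 1723 in DL and 1174 to 1473 in OMN, and 0 of the 8 were called by limma in any comparison (2, 1 and 1 at an unadjusted p under 0.05 for L5 with OMN, L5 with DL and DL with OMN). The means of that probe set and of the sum were lowest in L5, and their relation was not tested. A second, dimmer Cdh5 probe set did not show this order, with means of 36.2 in L5, 23.1 in DL and 38.1 in OMN and L5 minus DL at 0.38.

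Among type I cadherins, Cdh2 and Cdh4 were above the noise level on all arrays and 0 of 5 members were called by limma in any comparison. At an unadjusted limma p under 0.05 there were 1, 3 and 2 for L5 with OMN, L5 with DL and DL with OMN. Over all 18193 genes these counts were 2904, 3440 and 2920. Cdh2 is N-cadherin, the main classical cadherin of neurons. Its intensity was 1543, 1514 and 1338 on the L5 arrays, 656, 706 and 1305 on the DL arrays and 1885, 1506 and 1556 on the OMN arrays. All DL arrays were below all L5 and OMN arrays, but DL array 3 stood close to them and apart from DL arrays 1 and 2, and DL minus OMN was -0.94 ± 0.28 (limma adjusted p = 0.152). A second Cdh2 probe set, with means of 534 in L5, 591 in DL and 888 in OMN, disagreed on L5 minus DL, at -0.14 against 0.78 for the chosen one. For DL minus OMN it gave -0.58, and for L5 minus OMN -0.72 against -0.16. Cdh4, R-cadherin, first found in retina, had intensities of 142, 133 and 176 on the L5 arrays, 286, 222 and 216 on the DL arrays and 72.1, 130.3 and 136 on the OMN arrays. Every DL array was highest, and DL minus OMN was 1.03 ± 0.27 (limma adjusted p = 0.105). Cdh15, the cadherin of muscle precursors, was dim, at 56.9, 38.7 and 55 on the L5 arrays, 6.6, 19.1 and 33.6 on the DL arrays and 17.9, 7 and 37.2 on the OMN arrays, with L5 minus OMN at 0.92 ± 0.30 (limma adjusted p = 0.194). Its L5 arrays lay above the noise level and the others on either side of it.

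Cdh13, or T-cadherin, was the only atypical cadherin above the noise level on all arrays. It is held to the membrane by a lipid anchor and has no cytoplasmic tail. The chosen probe set averaged 683 ± 78.8 in L5, 691 ± 151 in DL and 461 ± 90.2 in OMN (SD, n = 3 each). Its probe sets disagreed between L5 and DL, with a log2 difference of 0.00 for the chosen one and 1.27 for another (limma adjusted p of 0.0381 over all probe sets). That other set had intensities of 640, 801 and 669 on the L5 arrays, 327, 301 and 226 on the DL arrays and 403, 420.4 and 417 on the OMN arrays. Cdh16, Cdh17, Cdh23 and Cdh26 had means over the 9 arrays of 10.7, 7.82, 10.6 and 16.9, below the noise level.

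**Figure D2:**
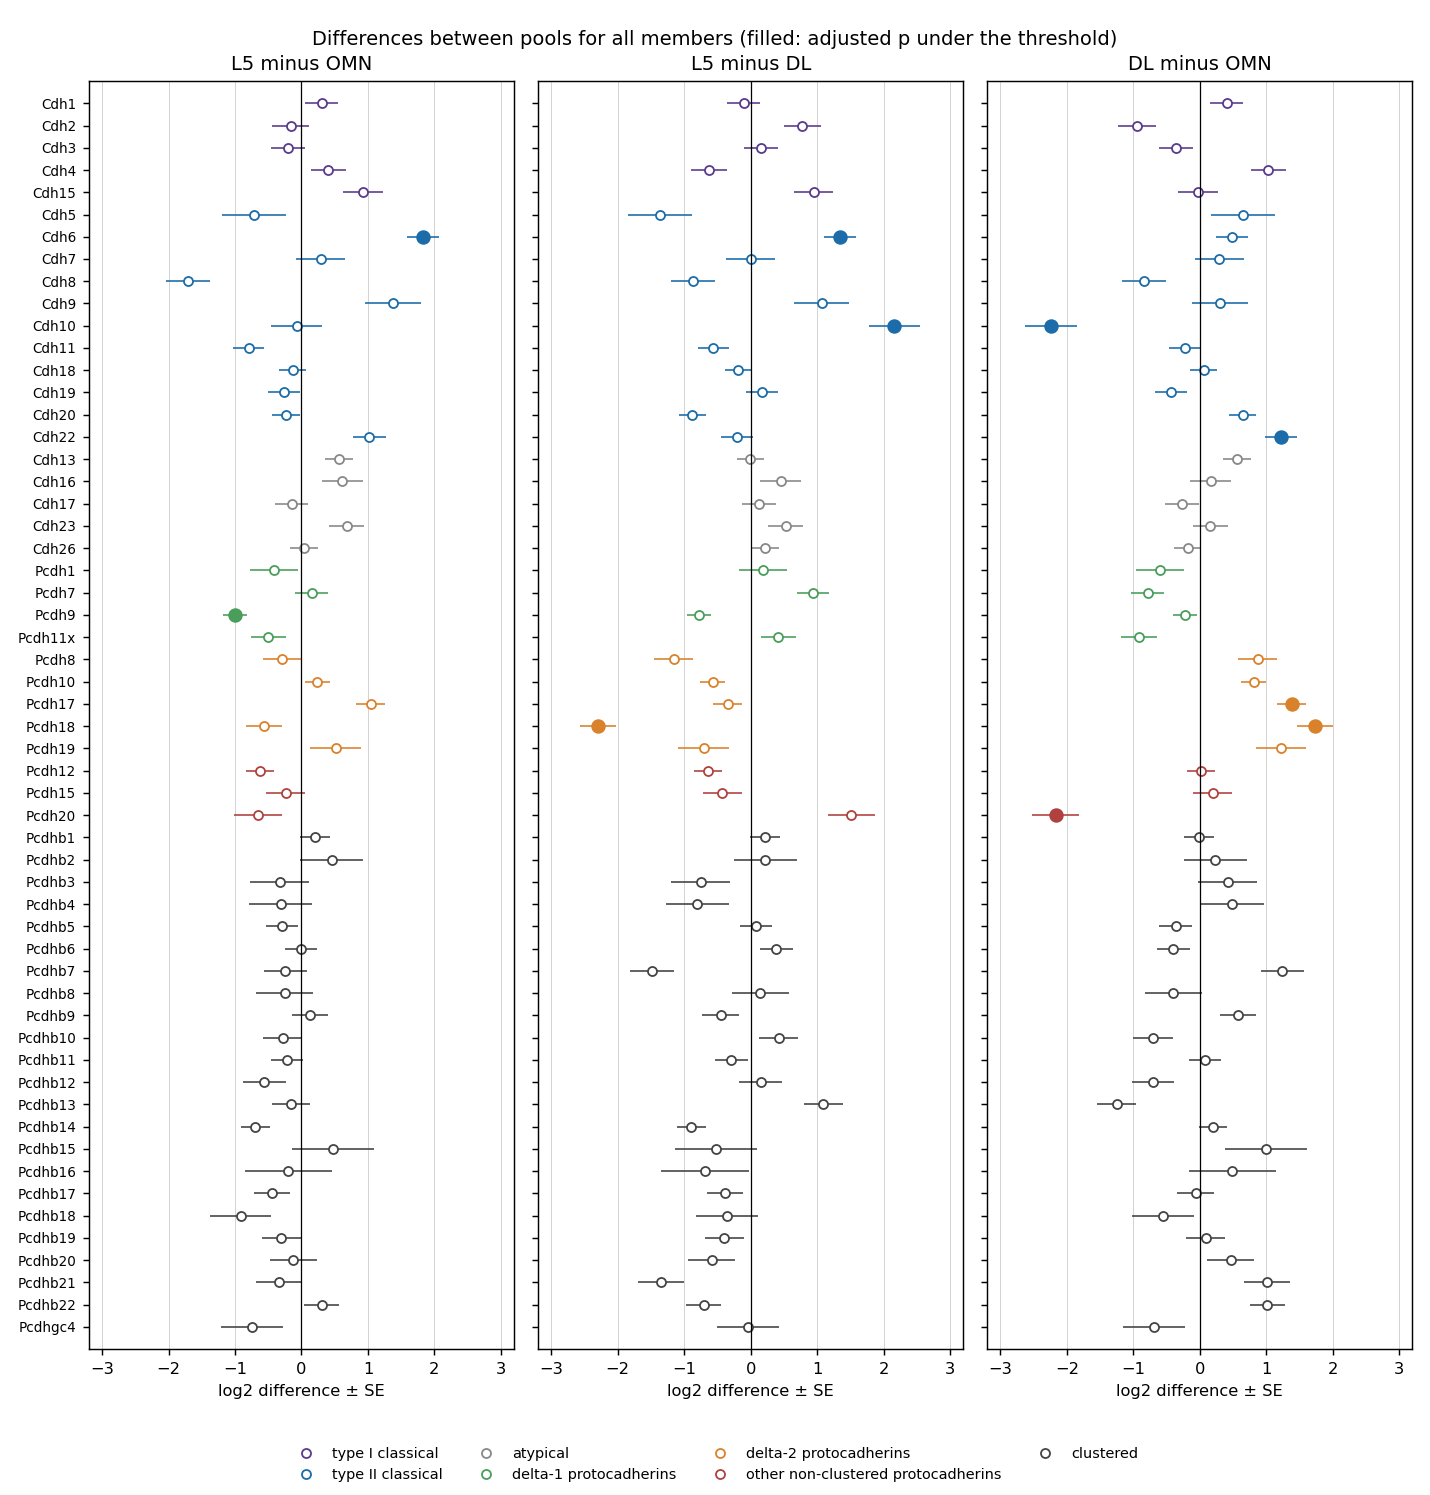
Log2 differences with SE from limma for all 56 members, grouped by sub-family, as L5 minus OMN, L5 minus DL and DL minus OMN. Filled points are the 2, 3 and 5 members called. The 5 delta-2 protocadherins are all on the positive side for DL minus OMN and on the negative side for L5 minus DL, and none of the 23 clustered members is called in any of the 3 comparisons.

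The delta-2 protocadherins were on the high side in DL. The group comprises Pcdh8, Pcdh10, Pcdh17, Pcdh18 and Pcdh19, whose tails recruit actin regulators such as the WAVE complex. On their chosen probe sets, all 5 had every DL array above every OMN array, where 9.5% of all genes did. Of the 5, 4 had every L5 array below every DL array, where 9.64% of all genes did. Those shares include dim genes, since 56.7% of all genes exceeded the noise level on all 9 arrays, as all 5 members here did. Between DL and OMN, 2 of the 5 were called higher and 0 lower, against 1.36% and 1.64% of all genes. The median log2 difference was 1.22, against -0.04 over all genes. Between L5 and DL, 1 was called lower and 0 higher, against 1.27% and 1.25% of all genes. The median was -0.71, against 0.06 over all genes. Between L5 and OMN, 0 of the 5 were called by limma (1 at an unadjusted p under 0.05), against 2.15% of all genes called. The median was 0.24, against 0.01 over all genes. The oligodendrocyte and inhibitory interneuron sums and the astrocyte marker Gfap were also highest in DL, and their part in these values was not tested.

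Pcdh18 had the largest difference of the group. In mouse it was found as a binding partner of the adaptor Dab1. Its intensity was 47.8, 43.9 and 77.5 on the L5 arrays, 353, 272 and 386 on the DL arrays and 50.9, 112 and 118 on the OMN arrays. The DL arrays were far above all others, and L5 and OMN overlapped. Pcdh18 was 5.98-fold lower in L5 than in DL (log2 difference -2.30 ± 0.27, limma adjusted p = 0.0107) and 3.60-fold higher in DL than in OMN (1.74 ± 0.27, limma adjusted p = 0.0204). Its other 2 probe sets gave -2.14 and -1.54 for L5 minus DL and 1.43 and 2.32 for DL minus OMN. The L5 with DL call was lost when any L5 array was left out, once the Gapdh ratio entered the fit, and without DL arrays 1 and 3 (adjusted p up to 0.112 over all alternatives), and the direction held in all 20 alternatives.

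Pcdh17 separated both spinal pools from OMN. It acts in the extension of axons along one another and at presynaptic sites. Its intensity was 2079, 1993 and 1372 on the L5 arrays, 2135, 2472 and 2224 on the DL arrays and 801, 853 and 933 on the OMN arrays. No OMN array reached the lowest spinal array. Pcdh17 was 2.64-fold higher in DL than in OMN (log2 difference 1.38 ± 0.22, limma adjusted p = 0.0207). The L5 mean was 2.10 times the OMN mean, a difference of 1.04 ± 0.22 that did not pass the test for this probe set (limma adjusted p = 0.0690). A second probe set gave 1.51 for DL minus OMN and 1.22 for L5 minus OMN, and for L5 minus OMN the limma adjusted p over all probe sets was 0.0480. The DL with OMN call was lost when any DL or OMN array was left out (adjusted p up to 0.112 in those fits and 0.148 over all alternatives). As for Cdh22, the Schwann cell and sensory ganglion sum was also higher in both spinal pools, and its part was not tested. Of its 3 markers, 2 were lower in L5 than in OMN.

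The other 3 delta-2 members were also highest on average in DL, without a call. Pcdh8, or arcadlin, takes part in the uptake of N-cadherin at active synapses, and its intensity was 741, 899.5 and 1440.1 on the L5 arrays, 2350.2, 2499.8 and 1857 on the DL arrays and 827, 1474 and 1442 on the OMN arrays. Its DL arrays were the highest, with L5 minus DL at -1.16 ± 0.29 (limma adjusted p = 0.0921), and a second, dimmer probe set gave -0.33. That second Pcdh8 set had a mean of 39.6 over the 9 arrays. It overlapped between DL (56.5, 35.2 and 44) and OMN (13.6, 71.5 and 37.2). Pcdh10, needed for axon growth through the basal forebrain, had intensities of 1397, 1443 and 1048 on the L5 arrays, 1995, 2067 and 1704 on the DL arrays and 967, 1368 and 963 on the OMN arrays. Its DL arrays were again the highest, with DL minus OMN at 0.81 ± 0.19 (limma adjusted p = 0.0785). Of 4 other Pcdh10 probe sets above the noise level on all arrays, 3 gave DL minus OMN at 1.07, 0.77 and 0.62, and the dimmest had its lowest mean in DL, at 65.7 against 100.3 in L5 and 97.6 in OMN (-0.48). Pcdh19, an X-linked gene whose loss causes epilepsy in humans, had intensities of 777, 458 and 656 on the L5 arrays, 1273, 1347 and 611 on the DL arrays and 317, 477 and 513 on the OMN arrays. DL array 3 fell among the L5 arrays, and DL minus OMN was 1.22 ± 0.38 (limma adjusted p = 0.164).

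**Figure D3:**
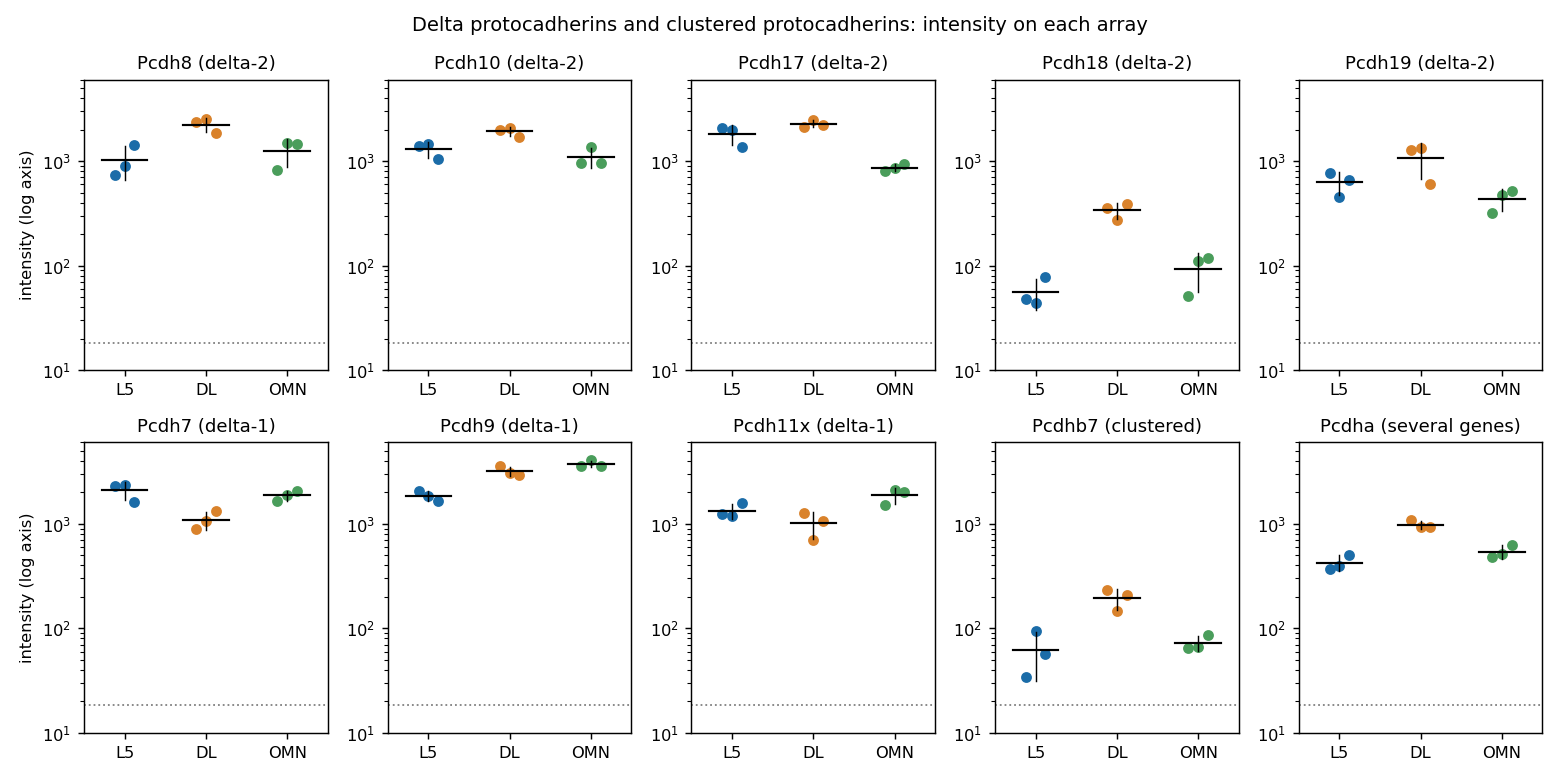
Intensity on a log axis in L5, DL and OMN for the 5 delta-2 protocadherins, 3 delta-1 protocadherins, the clustered Pcdhb7 and a probe set shared by several Pcdha genes. Points are arrays, horizontal lines are means with SD (n = 3), and the dotted line is the noise level of 18.3. For each delta-2 gene the 3 DL points lie above the 3 OMN points.

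The delta-1 protocadherins, whose tails carry a site that binds protein phosphatase 1, did not share 1 order. Pcdh9 was low in L5, with intensities of 2066, 1835 and 1658 on the L5 arrays, 3568, 3069 and 2949.9 on the DL arrays and 3592, 4031 and 3565 on the OMN arrays. Every L5 array lay below every DL and OMN array, and DL and OMN overlapped. Pcdh9 was 2.01-fold lower in L5 than in OMN (log2 difference -1.01 ± 0.18, limma adjusted p = 0.0407), and L5 minus DL was -0.78 ± 0.18 (limma adjusted p = 0.0762). Its other 2 probe sets gave -1.39 and -1.22 for L5 minus OMN, but for L5 minus DL they gave -0.48 and 0.21, and 1 of them gave -1.43 for DL minus OMN (limma adjusted p of 0.0222 over all probe sets). The L5 with OMN call was lost in each of the 9 fits without 1 array (adjusted p up to 0.188 over all alternatives).

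Pcdh7 and Pcdh11x were lower in DL than in OMN without overlap, and neither was called. Pcdh7, known as NF-protocadherin in the frog, had intensities of 2301, 2371 and 1615 on the L5 arrays, 882, 1054 and 1319 on the DL arrays and 1655, 1878 and 2067 on the OMN arrays, and DL minus OMN was -0.79 ± 0.25 (limma adjusted p = 0.170). All its DL arrays also lay below all L5 arrays, with L5 minus DL at 0.94 ± 0.25 (limma adjusted p = 0.102). Pcdh11x, an X-linked member, had intensities of 1230.3, 1186 and 1570.2 on the L5 arrays, 1279, 699 and 1061 on the DL arrays and 1515, 2121 and 2025 on the OMN arrays, and DL minus OMN was -0.91 ± 0.27 (limma adjusted p = 0.143). Pcdh1 exceeded the noise level on 2 OMN arrays only.

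Of the remaining non-clustered protocadherins, Pcdh20 was called. Its intensity was 205, 93 and 105 on the L5 arrays, 37.9, 41.8 and 24.1 on the DL arrays and 387, 99.8 and 228 on the OMN arrays. Every DL array lay below every other array, and OMN array 2 stood within the range of L5. DL was 6.88-fold lower than OMN (log2 difference -2.17 ± 0.36, limma adjusted p = 0.0242), and L5 minus DL was 1.51 ± 0.36 (limma adjusted p = 0.0778). A second probe set gave -2.11 for DL minus OMN. As for Cdh10, the excitatory interneuron sum, mostly Slc17a6, was also lowest in DL, and its part was not tested. Of its 5 markers, 2 were higher in DL than in L5. Pcdh12, a protocadherin of vessel walls, averaged 44.5 ± 10.8 in L5, 78.4 ± 17.4 in DL and 77.1 ± 14.9 in OMN (SD, n = 3 each), and Pcdh15, a tip-link protein of inner-ear hair cells, averaged 46.1 ± 12.2, 70.1 ± 27.9 and 60.3 ± 30.5 in L5, DL and OMN. A second, dimmer Pcdh15 probe set went the other way, with DL minus OMN at -1.45 (limma adjusted p of 0.0483 over all probe sets). Its DL arrays read 28.4, 10.8 and 3.3, so that DL arrays 2 and 3 were below the noise level. In the 9 fits without 1 array, the call of Pcdh18 between DL and OMN was lost without L5 array 3 or array 1 or 3 of DL or OMN (adjusted p up to 0.0979, and 0.171 over all alternatives), and that of Pcdh20 held only without DL array 2 or OMN array 2 (up to 0.124, and 0.202 over all alternatives).

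**Figure D4:**
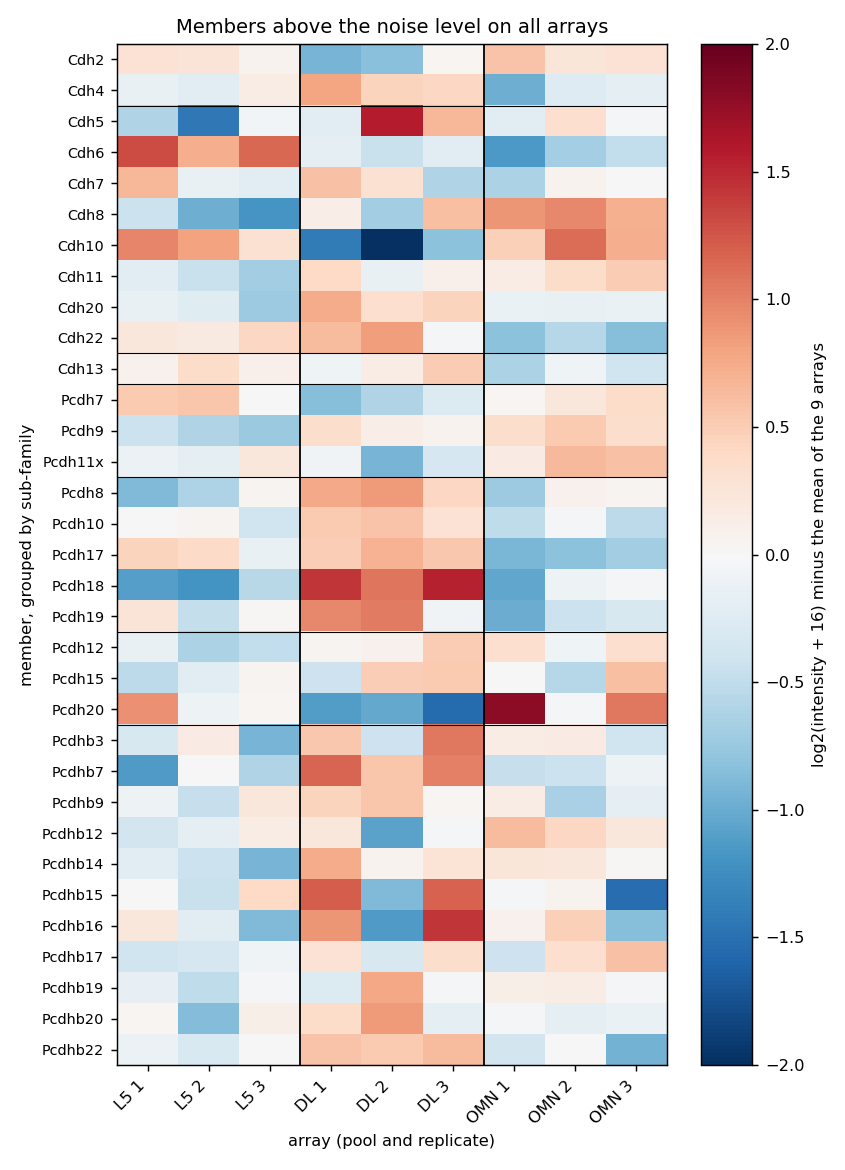
Log2(intensity + 16) minus the mean of the 9 arrays for the 33 members above the noise level on all arrays, with arrays in columns from L5 to DL to OMN and sub-families divided by lines. Red is above and blue below the mean of the member. The rows of the delta-2 group are red on the DL arrays, except Pcdh19 on DL array 3, while Cdh10 and Pcdh20 are blue there.

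The clustered protocadherins gave 0 calls of 23 by limma in each comparison. At an unadjusted limma p under 0.05 there were 1, 5 and 5 for L5 with OMN, L5 with DL and DL with OMN. Over all 18193 genes these counts were 2904, 3440 and 2920. These 23 were 22 Pcdhb genes and Pcdhgc4. Probe sets on near-identical copies may share signal, so a single Pcdhb value is uncertain. The median log2 difference of the 23 was -0.25 for L5 minus OMN, -0.38 for L5 minus DL and 0.09 for DL minus OMN, against 0.01, 0.06 and -0.04 over all genes. The sum of their intensities was 1388 to 1575 in L5, 2064 to 2717 in DL and 1507 to 1866 in OMN, so the 3 DL arrays had the highest sums.

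Pcdhb7 had the largest L5 with DL difference of the clustered genes, with intensities of 34.6, 95.2 and 57.2 on the L5 arrays, 234, 146 and 207 on the DL arrays and 65, 66.2 and 87.2 on the OMN arrays. Its DL arrays lay above all others, with L5 minus DL at -1.48 ± 0.32 (limma adjusted p = 0.0663) and DL minus OMN at 1.24 ± 0.32 (limma adjusted p = 0.108). Pcdhb21 followed the same order, at 44.7, 42.7 and 17.8 on the L5 arrays, 101, 114 and 115 on the DL arrays and 25, 50.7 and 72.8 on the OMN arrays, with L5 minus DL at -1.35 ± 0.35 (limma adjusted p = 0.0943), while its other probe set gave -0.28. Pcdhb22 had intensities of 193, 168 and 211 on the L5 arrays, 317, 309 and 335 on the DL arrays and 159.9, 209 and 101 on the OMN arrays, again with every DL array highest, and DL minus OMN was 1.01 ± 0.27 (limma adjusted p = 0.108). Pcdhb13 went the other way, at 30.9, 82.8 and 22.3 on the L5 arrays, 1.8, 41.2 and 1.9 on the DL arrays and 45.4, 58.3 and 37.9 on the OMN arrays. DL arrays 1 and 3 were below the noise level for it, and DL minus OMN was -1.25 ± 0.29 (limma adjusted p = 0.0772). For Pcdhb16, L5 minus DL was -0.69 on the chosen probe set and 0.50 on another.

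The alpha cluster entered no count because its 6 probe sets each name several Pcdha genes. The variable first exons of this cluster are joined to shared constant exons. Of the 3 bright sets, which name 14 genes each, the first had intensities of 369, 396 and 508 on the L5 arrays, 1083, 932 and 937 on the DL arrays and 479, 517 and 630.5 on the OMN arrays. Every DL array was above every other array. Its L5 minus DL difference was -1.19 (limma adjusted p of 0.0444 over all probe sets), and the other bright sets gave -0.90 and -0.30 (adjusted p of 0.111 and 0.514).

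Across the members, DL held the highest mean more often than the other pools. Of all 56, 10 had their highest mean in L5, 27 in DL (48.2%) and 19 in OMN, against 37.8%, 30.6% and 31.6% of all 18193 genes. Of the 33 above the noise level on every array, 2 had their highest mean in L5, 22 in DL (66.7%) and 9 in OMN, against 36.1%, 33.3% and 30.6% of the 10307 genes above it. Clustered protocadherins, whose probe sets may share signal, made up 11 of the 33, so these members are not all separate. Members with no overlap between L5 and DL numbered 7 with L5 above (12.5%, against 13.7% of all genes) and 13 with L5 below (23.2%, against 9.64%). Between DL and OMN they numbered 13 with DL above (23.2%, against 9.5%) and 9 with DL below (16.1%, against 11.6%), and between L5 and OMN 7 above and 7 below (12.5% each, against 14.6% and 12.7%). The median log2 difference of the 56 was -0.20 for L5 minus OMN, -0.20 for L5 minus DL and 0.12 for DL minus OMN. These counts describe the arrays and carry no test.

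Large differences were shared by a second probe set for some members and not for others. Of 17 members that differed by more than 1 on the log2 scale in some comparison, 5 had 1 probe set, and 8 of the other 12 had another set beyond 1 with the same sign. Among members with another set, these were 4 of 4 for L5 minus OMN and 3 of 7 for L5 minus DL. For DL minus OMN they were 5 of 7. A further 2, 3 and 4 members in these comparisons had 1 probe set. Among 22 other probe sets of 16 genes that exceeded the noise level on all arrays, 20 had the same sign as the chosen set for L5 minus OMN, 16 for L5 minus DL and 17 for DL minus OMN. Where the chosen set differed by more than 1 on the log2 scale, the sign was shared by 5 of 5, 3 of 3 and 6 of 6 of them, although the Cdh10 set was near 0 for L5 minus DL.

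**Figure D5:**
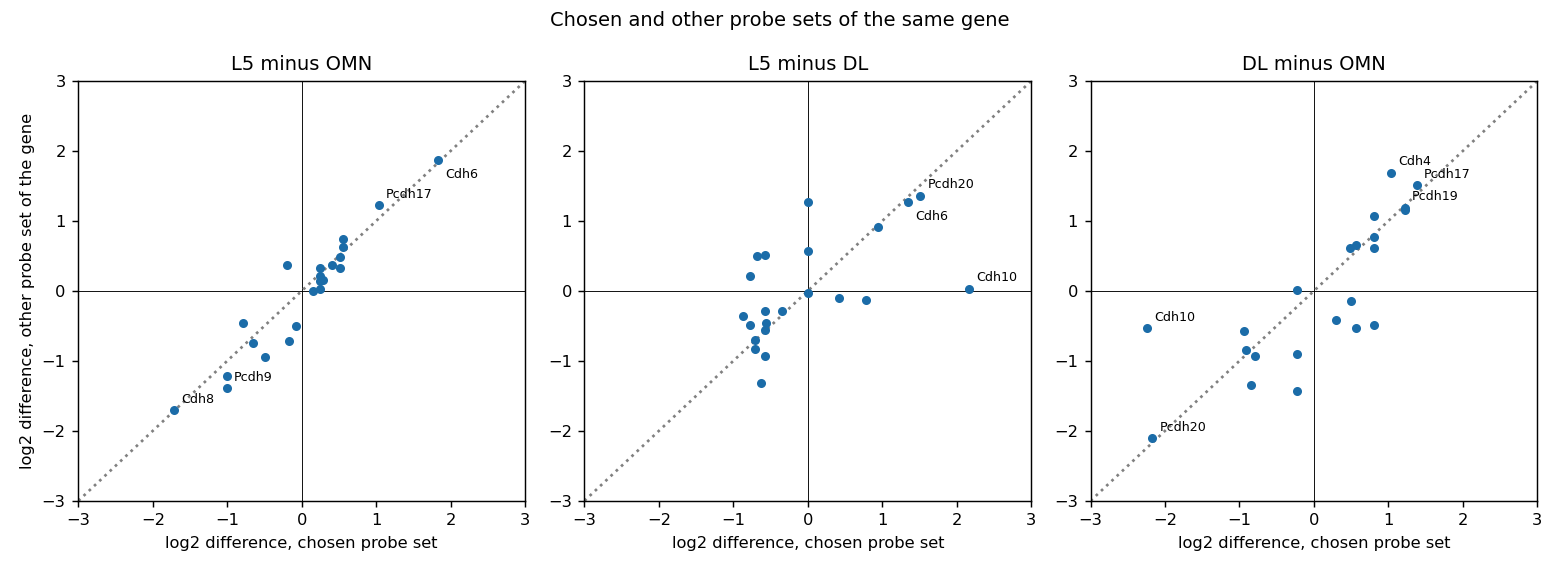
Log2 difference of 22 other probe sets against that of the chosen probe set of the same gene, for L5 minus OMN, L5 minus DL and DL minus OMN. Each point is 1 other probe set, the dotted line marks equal values, and genes whose chosen set differs by more than 1 are named. Cdh6, Pcdh17 and Pcdh20 lie near the line where they are named. Cdh10 lies far from it, as do the unnamed Pcdh9 points of L5 minus DL and DL minus OMN.

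A list of 64 genes, named partner genes here, held 24 partners of classical cadherins, 17 of protocadherins and 23 other cadherin-repeat proteins. Of the 64, 2 were called between L5 and OMN (3.12%, against 2.15% of all genes) and 2 between L5 and DL (3.12%, against 2.52%). Between DL and OMN 3 were called (4.69%, against 3%). Of 24 measured partners of classical cadherins, among them the catenins and nectins, 1 was called higher and 0 lower between L5 and OMN, 0 higher and 1 lower between L5 and DL, and 1 higher and 0 lower between DL and OMN. Ctnna3, an alpha-catenin abundant in heart muscle, had intensities of 137, 153 and 72.5 on the L5 arrays, 46.8, 77.9 and 125 on the DL arrays and 2.5, 10.1 and 11 on the OMN arrays. Its OMN arrays were all below the noise level. Taking 18.3 as the OMN level and the geometric mean of the brighter pool, L5 was at least 6.28-fold higher than OMN and DL at least 4.21-fold higher (limma adjusted p = 0.0202 and 0.0331). Nectin3, an adhesion protein that cooperates with cadherins at junctions, had intensities of 523, 372 and 547 on the L5 arrays, 1446, 1395 and 1151 on the DL arrays and 719, 839 and 748 on the OMN arrays, with every L5 array lowest and every DL array highest. It was 2.77-fold lower in L5 than in DL (log2 difference -1.45 ± 0.23, limma adjusted p = 0.0246). That call held in 2 of the 9 fits without 1 array, those without DL array 3 or OMN array 2, and was lost when probe sets were averaged, with the Gapdh ratio in the fit and without DL arrays 1 and 3 (adjusted p up to 0.122 over all alternatives). Of the 9 fits without 1 array, the Ctnna3 call held in 4 for L5 with OMN and in 2 for DL with OMN (up to 0.119 and 0.149).

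Of 23 other cadherin-repeat proteins, 1 was called higher and 0 lower between L5 and OMN, 0 higher and 1 lower between L5 and DL, and 1 higher and 1 lower between DL and OMN. Clstn2, a calsyntenin of synaptic membranes, had intensities of 1549, 1502 and 1785 on the L5 arrays, 987, 963 and 1026 on the DL arrays and 576, 444 and 662 on the OMN arrays. The 3 pools did not overlap, and L5 was 2.88-fold higher than OMN (log2 difference 1.51 ± 0.19, limma adjusted p = 0.0110). That call was lost when any L5 or OMN array was left out (up to 0.0775 over all alternatives). Cdhr1, a cadherin of photoreceptors formerly named Pcdh21, had intensities of 414, 386 and 273 on the L5 arrays, 747, 858 and 880 on the DL arrays and 152, 242 and 184 on the OMN arrays. The DL arrays were the highest and the OMN arrays the lowest. It was 2.32-fold lower in L5 than in DL (-1.19 ± 0.23, limma adjusted p = 0.0491) and 4.30-fold higher in DL than in OMN (2.04 ± 0.23, limma adjusted p = 0.00600). The call between L5 and DL was lost in each of the 9 fits without 1 array, under quantile normalization, with the Gapdh ratio in the fit and without DL arrays 1 and 3 (adjusted p up to 0.271 over all alternatives). That between DL and OMN was lost only without DL arrays 1 and 3, among the 20 alternatives (0.0993). Fat4, a giant cadherin that pairs with Dchs1 in tissue polarity, had intensities of 54.8, 51.4 and 38.4 on the L5 arrays, 30.6, 12.8 and 45.3 on the DL arrays and 158, 176 and 98.1 on the OMN arrays. Its OMN arrays were the highest, DL array 2 was below the noise level, and DL minus OMN was -1.85 ± 0.34 (limma adjusted p = 0.0348). The call held in 1 of the 9 fits without 1 array, that without DL array 3, and was lost under quantile normalization (up to 0.165 over all alternatives). As for Cdh8, the excitatory interneuron sum was also highest in OMN.

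Of 17 partners of protocadherins, which include the subunits of the WAVE complex, 0 were called by limma in each comparison. At an unadjusted limma p under 0.05 there were 4, 3 and 3 for L5 with OMN, L5 with DL and DL with OMN. Over all 18193 genes these counts were 2904, 3440 and 2920. The median log2 differences of the 17 were -0.21, -0.07 and -0.05 in that order.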

How the data were processed

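The authors deposited 1 table of linear intensity values for 45101 probe sets on 9 arrays. The 2% trimmed mean of each array was 250.0, so the arrays had been scaled to 1 target. The software behind the values is not given in the sources used, and a scaled array carries no information on total RNA per cell.

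Of the probe sets, 64 were controls. Of the rest, 34945 had 1 gene in the platform annotation, 932 had several and 9160 had none. To represent each of the 18193 genes, the probe set highest in mean log2(intensity + 16) over the 9 arrays was taken. All 56 member identifiers matched RefSeq, and 26 members lie on chromosome 18. Intensities were analysed as log2(intensity + 16), which understates the change of dim genes, and folds are ratios of mean intensities. All 9 arrays were fitted in R 4.3.3 with the lmFit, contrasts.fit and eBayes functions of limma 3.58.1, with the pool as factor and the replicate number of the titles as a block, since per the labels' protocols each animal gave neurons of every pool. The 3 pairwise tests were two-sided. The script was tested on simulated arrays with planted differences. Precision is limited by the 3 arrays per pool.

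The members and the gene lists were chosen with earlier results of these data known, as was the noise level. The fit of every probe set on its own and 2 of the 20 alternatives (the Gapdh ratio and the fit without DL arrays 1 and 3) were added after the values had been seen. Named genes were every called member, the 8 with the highest mean, the 5 largest uncalled differences above noise in each comparison, called partners and members whose probe sets disagreed. Cdh20, Cdh11, Cdh7, Pcdh12 and Pcdh15 were added after their values were seen. Of the partner lists, 24 of 28, 23 of 27 and 17 of 20 symbols were matched. Alternatives changed the block, the pseudocount, a filter on dim genes, the scaling, the probe set rule, the variance model, the arrays in the fit and the RNA quality term.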

Additional observations from a re-analysis of the deposited data

How the results depend on the processing

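The replicate numbers were checked for pairing. Over 10693 genes the deviations of same-numbered arrays correlated between -0.041 and 0.029, so the arrays share only a number as far as these data show. With no replicate block, the members called were 4 for L5 with OMN, 7 for L5 with DL and 5 for DL with OMN, against 2, 3 and 5 with it, and all members called with the block stayed called. The partner genes called without the block were 4, 6 and 4, against 2, 2 and 3.

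All 10 calls of members kept their direction in the 20 alternatives, but their side of the threshold depended on the setting. In the order L5 with OMN, L5 with DL and DL with OMN, the members called were 0, 0 and 0 with a pseudocount of 1, 4, 5 and 6 with 64, 4, 6 and 6 among genes with a mean of at least 50, 3, 3 and 4 under quantile normalization, 1, 4 and 6 after each array was centred on its median, 4, 3 and 9 when the probe sets of a gene were averaged, 5, 8 and 11 with trend and robust variances, 2, 1 and 0 with only the 2 pools compared, 2, 1 and 1 with the Gapdh ratio in the fit, and 2, 0 and 1 without DL arrays 1 and 3. For partner genes these were 0, 0 and 1; 5, 8 and 4; 4, 3 and 4; 3, 1 and 2; 2, 3 and 4; 4, 2 and 4; 6, 7 and 5; 4, 0 and 1; 3, 1 and 3; and 4, 0 and 1. Without 1 array, the members called ranged from 0 to 2, 0 to 2 and 0 to 3, and the partner genes from 0 to 3, 0 to 1 and 1 to 2. Calls among all genes were counted in every alternative except the fits without 1 array. They ranged from 101 to 946, from 0 to 1147 and from 119 to 872. The higher and lower calls among members were 1 and 1 for L5 with OMN as reported, 1 and 0 after centring and 1 and 2 after quantile normalization. For L5 with DL they were 2 and 1 as reported and 2 and 2 after centring, and for DL with OMN 3 and 2 as reported, 4 and 2 after centring and 2 and 2 after quantile normalization. Centring shifted the median of DL minus OMN over all genes by 0.15. The cause of these changes was not tested.

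Differences that changed sign were small and uncalled as reported. Without 1 array, L5 minus OMN ranged from -0.31 to 0.27 for Cdh10, -0.32 to 0.034 for Cdh2, -0.037 to 0.44 for Pcdh7, -0.65 to 0.067 for Pcdhb7, -0.69 to 0.078 for Pcdhb21, -0.52 to 0.035 for Pcdhb13 and -0.00041 to 0.58 for Pcdhb22, and DL minus OMN from -0.063 to 0.88 for Cdh9 and -0.27 to 0.30 for Cdh15. When probe sets were averaged, L5 minus OMN was -0.0041 for Pcdh7 and 0.0017 for Pcdhb21. For DL minus OMN, Cdh9 was -0.49 with the Gapdh ratio in the fit and -0.84 without DL arrays 1 and 3, while Cdh15 was 0.14 after quantile normalization, 0.12 after centring, 0.21 with the Gapdh ratio in the fit and 0.45 without DL arrays 1 and 3. Among the other values of named genes, 1368 kept both direction and side of the threshold, 57 passed it only in an alternative and 166 passed it only as reported. Signal limits the dim members, since 23 of the 56 did not exceed the noise level on every array.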
